A study of Mus musculus with 15 samples.

Results

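The mRNA levels of 42 genes of DNA replication were compared in mouse (Mus musculus) ear tissue, out of 48795 genes in the deposited count tables. The genes were listed by name with earlier results of these data known, and no measured value enters the rule: each listed symbol was matched to its Ensembl identifier through the GENCODE mouse annotation. They fall into 3 classes: 21 genes of origin licensing and the helicase, 17 of the polymerases and the clamp, and 4 of nucleotide supply. Messenger RNA was taken from the ears of 5-week-old females and sequenced as 15 libraries, in a model that inflames ears with phorbol 12-myristate 13-acetate (PMA). This irritant activates protein kinase C. The groups were Control (n = 5 libraries), labelled as control treatment within that model, PMA_ethanol (n = 4), whose label names PMA and ethanol, and PMA_1002 (n = 6), whose label names PMA and 1002, the innate defense regulator peptide whose anti-inflammatory activity the study addressed. Ethanol is not part of the PMA_1002 label, and the sources used here do not give strain, doses, times or what control ears received. Whether each library is a separate animal is not said in the labels, so the p-values weigh differences against a spread of samples that may be technical.

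DNA replication begins when the origin recognition complex marks origins in G1 and loads the MCM helicase with the help of CDC6 and CDT1, which is called licensing. In S phase CDC45 and the GINS complex activate the helicase, primase and the polymerases copy the strands, the clamp PCNA holds the polymerases on DNA, and ribonucleotide reductase, thymidylate synthase and thymidine kinase supply nucleotides. Many of these genes are E2F targets that are transcribed when cells enter the cycle, and in skin dividing cells are found in the basal epidermis, the hair follicle matrix and the sebaceous gland.

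Promoter sequences are shown first, for 2 members that fell and 2 that rose with PMA_ethanol, since E2F sites are the textbook control elements of replication genes. A window of 250 bases before to 50 bases after the start of a gene was taken from RefSeq (build GRCm38.p6) for 34 of the 42 members. An E2F site was searched as TTTCCCGC, TTTGGCGC, TTTGCCGC or TTTCGCGC, a CCAAT box as CCAAT, and the cell cycle homology region (CHR) as TTTGAA, each on both strands. The E2F letters and the CCAAT letters do not overlap in the windows shown. Capitals mark E2F sites and CCAAT boxes, with CCAAT read as ATTGG on the other strand.
Mcm6 (chr1:128359656-128359955, minus strand): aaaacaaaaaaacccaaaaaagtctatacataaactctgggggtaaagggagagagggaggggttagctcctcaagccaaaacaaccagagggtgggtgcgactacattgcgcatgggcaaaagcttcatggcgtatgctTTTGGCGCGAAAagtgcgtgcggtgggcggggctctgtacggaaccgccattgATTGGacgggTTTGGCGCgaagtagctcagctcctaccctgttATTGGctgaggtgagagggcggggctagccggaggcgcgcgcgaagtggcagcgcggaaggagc
Rpa1 (chr11:75348334-75348633, minus strand): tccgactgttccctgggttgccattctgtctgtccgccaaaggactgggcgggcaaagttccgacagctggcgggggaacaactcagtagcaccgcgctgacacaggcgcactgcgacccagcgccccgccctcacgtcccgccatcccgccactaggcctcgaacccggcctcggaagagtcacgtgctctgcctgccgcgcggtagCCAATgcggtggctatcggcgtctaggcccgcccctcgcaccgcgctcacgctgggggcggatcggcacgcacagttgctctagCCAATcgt
Pcna (chr2:132253131-132253430, minus strand): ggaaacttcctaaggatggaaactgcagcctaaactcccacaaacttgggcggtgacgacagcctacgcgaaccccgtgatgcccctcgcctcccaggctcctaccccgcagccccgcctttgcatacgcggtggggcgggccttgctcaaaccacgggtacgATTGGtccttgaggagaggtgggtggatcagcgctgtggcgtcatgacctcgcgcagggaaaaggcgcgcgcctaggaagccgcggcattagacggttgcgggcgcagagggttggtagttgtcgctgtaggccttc
Rrm2 (chr12:24708004-24708303, plus strand): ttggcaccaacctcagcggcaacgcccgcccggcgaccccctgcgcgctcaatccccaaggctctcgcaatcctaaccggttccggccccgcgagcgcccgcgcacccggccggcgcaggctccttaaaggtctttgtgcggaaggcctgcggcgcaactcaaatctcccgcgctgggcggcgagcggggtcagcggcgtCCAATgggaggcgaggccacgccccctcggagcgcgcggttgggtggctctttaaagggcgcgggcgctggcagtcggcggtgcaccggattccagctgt
Mcm6, a helicase subunit whose mRNA fell with PMA_ethanol, held 3 E2F matches, of which the pair that begins 110 and 106 bases before the start overlaps, and 2 CCAAT boxes. Rpa1, also lower with PMA_ethanol, held 2 CCAAT boxes and no E2F match. Pcna and Rrm2, both higher with PMA_ethanol, held 1 CCAAT box each and no E2F match. The windows of Lig1 and Tk1, both lower with PMA_ethanol, held none of the searched letters.

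E2F letters stood in 12 of the 34 member windows (35.3%), against 2.26% of all 32851 windows in the table. CCAAT stood in 22 of 34 (64.7%), against 37.4% of all windows, and the CHR letters in 4 of 34 (11.8%), against 17.9%. By class, 9 of 16 windows of licensing and helicase genes held E2F letters, 3 of 14 of polymerase and clamp genes and 0 of 4 of nucleotide supply genes. Among the 26 members with a window that fell in PMA_ethanol versus Control, 10 held E2F letters (38.5%). Of the 4 that rose, 0 held them and 4 held a CCAAT box, and of the 4 that did not pass, 2 held E2F letters. Member windows were richer in G and C than the table, with a median of 57.5% against 52.7%. These are matches of letters in a fixed window and were not tested, and no match says only that these letters are not in it.

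Levels are given as CPM, the counts scaled to the TMM-adjusted library size, and fold changes as log2 values with their standard errors (SE) from edgeR. A gene is said to have risen or fallen where edgeR's quasi-likelihood test, two-sided and fitted over all 15 libraries, gave a Benjamini-Hochberg adjusted p under 0.05 over the 14991 genes tested. Libraries held between 2656680 (PMA_ethanol library 3) and 28585995 (PMA_1002 library 5) reads in genes. Hair follicle matrix and shaft markers varied within every group, with summed levels of 75.96 to 3830 CPM in Control, 23.65 to 3984 in PMA_ethanol and 18.13 to 1283 in PMA_1002. Within PMA_ethanol they were highest in library 2 and lowest in library 3, the shallowest of all. All 42 members passed the filter on low counts, with 3 to 1636 reads of a member in a library. Group means ran from 2.30 CPM (Cdc6 in PMA_ethanol) to 72.8 CPM (Rpa1 in Control). Per kb of exon, Pcna had the highest mean level of the members in each group, at 17.5 CPM per kb in Control, 26.1 in PMA_ethanol and 23.3 in PMA_1002. The lowest mean level per kb was that of Orc1 in Control (0.936), Cdc6 in PMA_ethanol (0.440) and Mcm10 in PMA_1002 (0.685).

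PMA_ethanol versus Control asks how these genes differed in ears labelled with PMA and ethanol. No group is labelled with ethanol alone, so the parts of PMA and ethanol cannot be told apart. Of the 42 members 32 fell, 4 rose and 6 did not pass the test. Among all genes tested 68.4% passed, 35.9% as lower and 32.5% as higher, so the members' share of falls (76.2%) was above the background and their share of rises (9.52%) below it. The median log2 fold change of the members was -0.70, against -0.07 for all genes. Those that rose were Orc2, Orc4, Pcna and Rrm2, and those that did not pass were Orc1, Orc5, Cdt1, Mcm4, Prim2 and Tyms. In 28 members every PMA_ethanol library lay below every Control library, which 29.6% of all genes tested did. In ear tissue taken whole, fewer cells of a type and less RNA per cell cannot be told apart. Upper-quartile scaling moved the median of all genes by -0.24, and the share of higher calls among all genes called went from 47.5% to 33.6%; with it 35 members fell and 3 rose, Orc4 no longer passing.

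PMA_1002 versus PMA_ethanol compares ears labelled with PMA and the peptide with ears labelled with PMA and ethanol. Ethanol is not part of the PMA_1002 label, so the parts of peptide and ethanol cannot be told apart. Here 16 members were higher, 1 was lower and 25 did not pass. Of all genes tested 35.0% passed, 17.0% as higher and 18.0% as lower, so the share of members that were higher (38.1%) was above the background and the share that were lower (2.38%) below it. The median was 0.41, against 0.03 for all genes, and 37 of 42 fold changes were above 0. Without PMA_ethanol library 3 the members' median was 0.27. The members that were higher were Orc1, Cdc6, Mcm2, Mcm3, Mcm6, Cdc45, Gins3, Prim1, Pold1, Rfc1, Rfc3, Rfc5, Rpa1, Rpa2, Lig1 and Tk1, and the one that was lower was Rrm2. In 10 members every PMA_1002 library lay above every PMA_ethanol library, against 11.0% of all genes tested. The count rested partly on single PMA_ethanol libraries: it was 8 without library 1 and 24 without library 2, and Rrm2 no longer passed without library 4. Without library 1 Cdc45, Gins3, Pold1, Rfc1, Rfc3, Rpa2, Lig1 and Tk1 no longer passed. Orc1, Mcm2, Mcm3, Mcm6, Prim1, Rfc5 and Rpa1 passed under all 24 alternatives run, Cdc45 under 7, Pold1 under 8, Tk1 under 16, Gins3 under 18, Rfc3 and Rpa2 under 20, Rfc1 under 21, and Cdc6 and Lig1 under 23. Upper-quartile scaling gave 24 members higher and 1 lower, and the share of higher calls among all genes called went from 48.7% to 61.8%.

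PMA_1002 versus Control asks what remained different from control ears. Of the members 22 were lower, 7 were higher and 13 did not pass, where 55.0% of all genes tested passed, 26.7% as lower and 28.4% as higher. The median was -0.30, against -0.03 for all genes. The share of members that were lower (52.4%) was thus above the background, and the share that were higher (16.7%) below it. The members that were higher were Orc1, Orc2, Orc4, Mcm3, Mcm4, Pcna and Rrm2. Upper-quartile scaling moved the median of all genes by -0.16, that of the members to -0.46, and the share of higher calls among all genes called from 51.5% to 34.6%, with 29 members lower and 5 higher, Mcm3 and Mcm4 no longer passing. The 3 comparisons share libraries, so their values are set side by side here and not correlated.

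**Figure D1:**
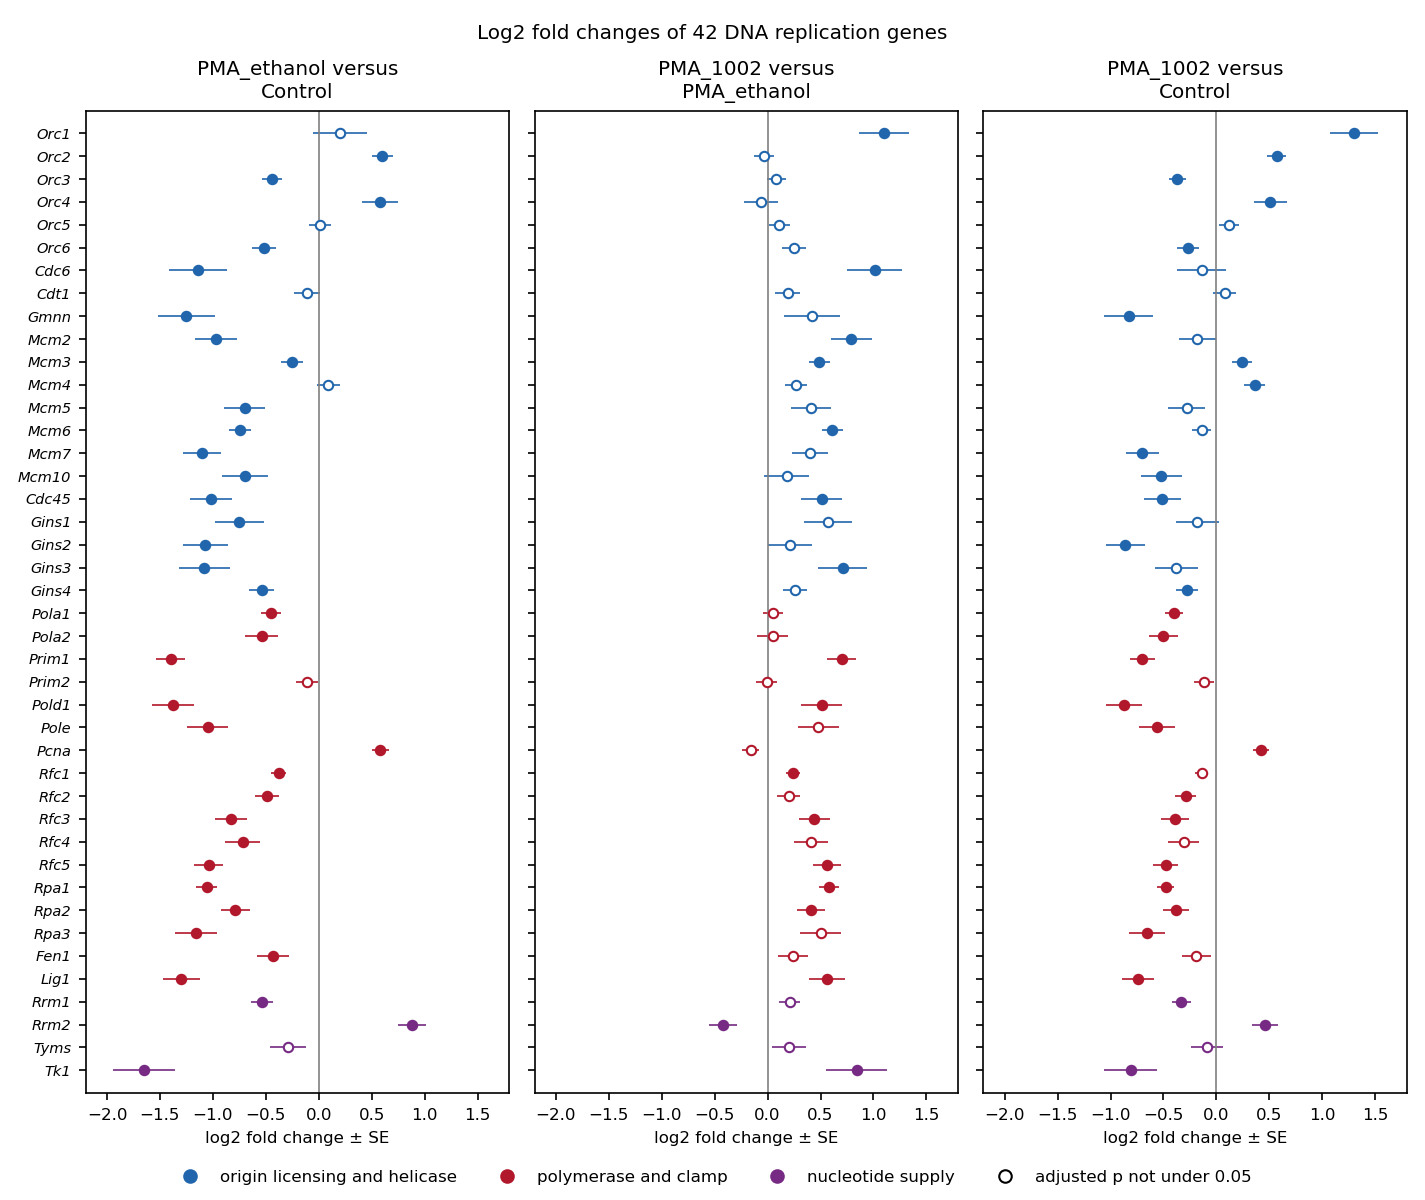
Log2 fold change (x axis, with SE bars) of each of the 42 DNA replication genes (y axis) in the 3 comparisons, coloured by class; filled points have an edgeR adjusted p under 0.05. Most points lie left of 0 in PMA_ethanol versus Control (35 of 42) and right of 0 in PMA_1002 versus PMA_ethanol (37 of 42), with Pcna, Rrm2, Orc2 and Orc4 on the other side.

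Set beside each other, the calls made 10 patterns. The most frequent, in 13 members, was lower in PMA_ethanol than in Control, not called between the PMA groups, and lower in PMA_1002 than in Control; these were Orc3, Orc6, Gmnn, Mcm7, Mcm10, Gins2, Gins4, Pola1, Pola2, Pole, Rfc2, Rpa3 and Rrm1. In 9 members, Cdc45, Prim1, Pold1, Rfc3, Rfc5, Rpa1, Rpa2, Lig1 and Tk1, PMA_ethanol was lower than Control, PMA_1002 was higher than PMA_ethanol, and PMA_1002 was still lower than Control. In 5 members, Cdc6, Mcm2, Mcm6, Gins3 and Rfc1, PMA_1002 was higher than PMA_ethanol and not called against Control, which does not show that it equalled Control. Mcm5, Gins1, Rfc4 and Fen1 passed only in PMA_ethanol versus Control, and Orc5, Cdt1, Prim2 and Tyms passed in none of the 3. Rrm2 ran against most members, being higher with PMA_ethanol, lower in PMA_1002 than in PMA_ethanol, and higher than Control in both PMA groups.

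**Figure D2:**
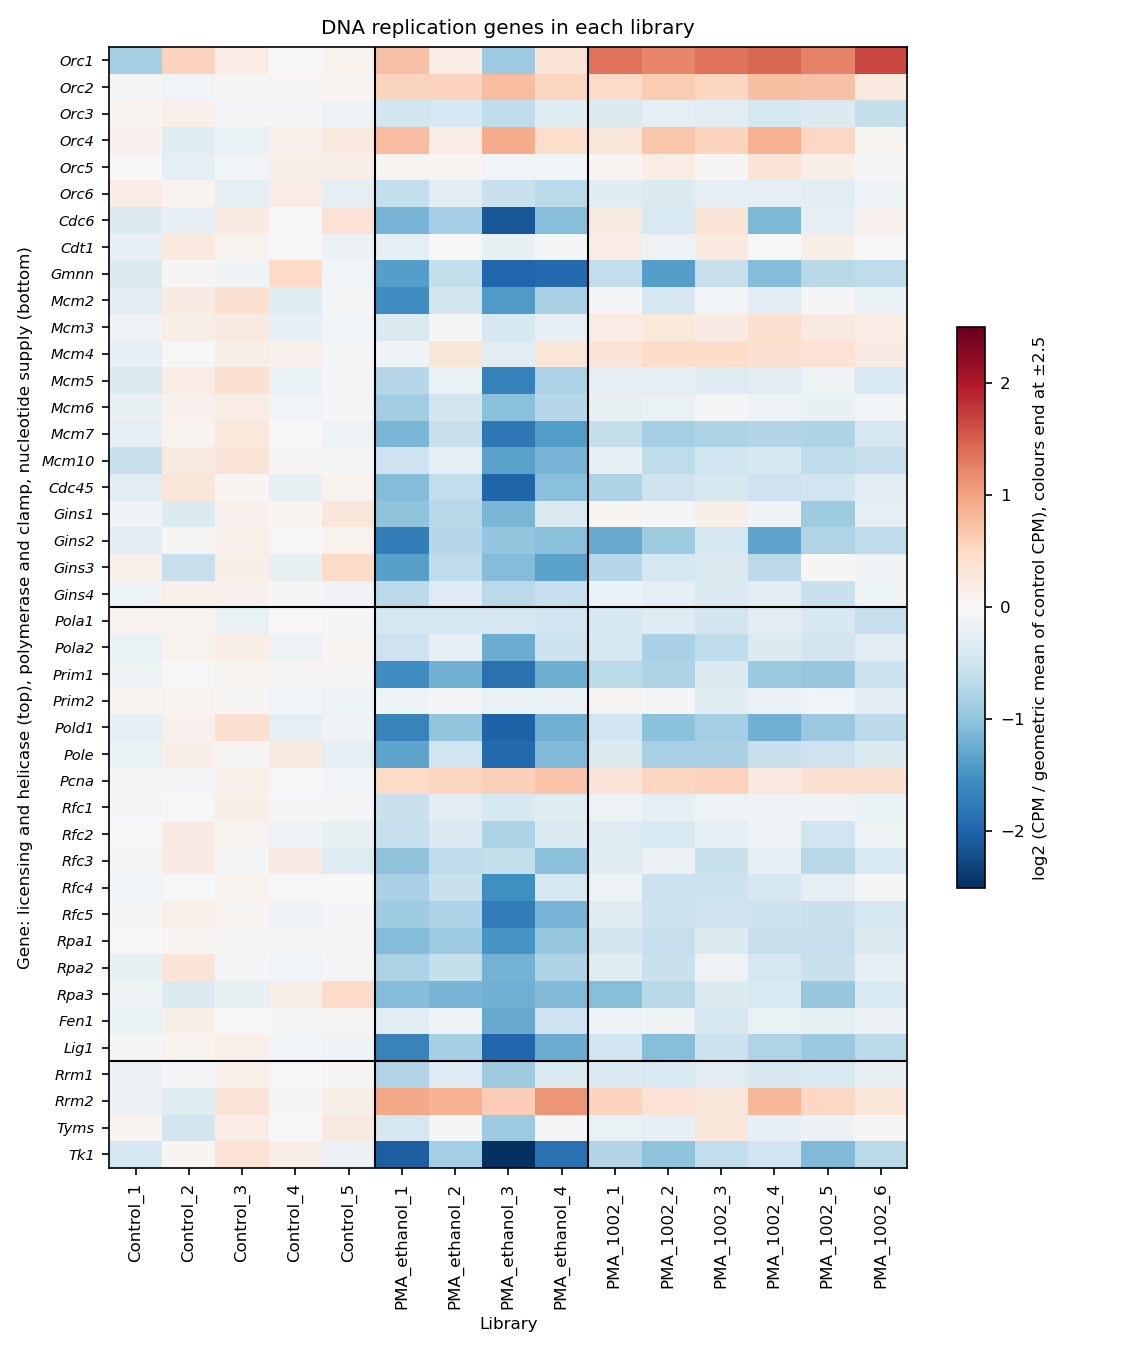
Level of each member (rows, by class) in each library (columns) as log2 of CPM over the geometric mean of the Control libraries; blue is below and red above Control, with colours ending at 2.5 in either direction. The 4 PMA_ethanol columns are mostly blue, most deeply in library 3, while the rows of Orc2, Orc4, Pcna and Rrm2 are red, and Orc1 is deep red in PMA_1002.

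The origin recognition complex binds origins and is the platform on which the helicase is loaded, and ORC1 is the subunit whose amount oscillates with the cycle. Values below are in CPM, for libraries 1 to 5 of Control and 1 to 4 of PMA_ethanol in order, and as the lowest, the median and the highest of the 6 PMA_1002 libraries. Orc1 (ENSMUSG00000028587, chr4:108579423-108614833, plus strand, GRCm38) stood at 1.73, 4.65, 3.53, 3.08 and 3.28 in Control, 5.15, 3.55, 1.66 and 3.86 in PMA_ethanol and 7.199, 7.96 and 9.83 in PMA_1002. All PMA_1002 libraries were above all others, and the Control and PMA_ethanol libraries overlapped. PMA_1002 was above PMA_ethanol by 1.10 (SE 0.24, adjusted p = 0.00186 by edgeR) and above Control by 1.30 (SE 0.23, adjusted p = 0.000128 by edgeR), while PMA_ethanol versus Control did not pass, at 0.20 (SE 0.26, adjusted p = 0.496 by edgeR). That small difference changed sign with upper-quartile scaling, to -0.03.

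Orc6, the smallest subunit of the complex, stood at 28.4, 26.5, 21.1, 28.4 and 21.5 in Control, 16.6, 20.5, 17.01 and 15.6 in PMA_ethanol and 19.8, 20.7 and 22.9 in PMA_1002. Every PMA_ethanol library was below every Control library, and PMA_1002 overlapped with both. Orc6 fell by 0.52 (SE 0.11, adjusted p = 0.000684 by edgeR) with PMA_ethanol, and PMA_1002 versus PMA_ethanol did not pass at 0.25 (SE 0.11, adjusted p = 0.0883 by edgeR). Orc2 and Orc4, core subunits, rose together with PMA_ethanol, Orc2 by 0.60 (SE 0.098, adjusted p = 3.68e-05 by edgeR) and Orc4 by 0.58 (SE 0.17, adjusted p = 0.00614 by edgeR). Their means were 30.2 ± 1.13 (SD, n = 5), 46.2 ± 3.84 (n = 4) and 45.0 ± 5.76 CPM (n = 6) for Orc2 and 30.8 ± 4.76, 46.5 ± 10.4 and 43.9 ± 8.58 CPM for Orc4 in Control, PMA_ethanol and PMA_1002. Both stayed above Control in PMA_1002, with log2 fold changes of 0.57 and 0.51 (edgeR adjusted p = 4.45e-05 and 0.00933), and neither passed between the PMA groups. Orc3, another core subunit, fell by 0.44 (SE 0.093, adjusted p = 0.000413 by edgeR) with PMA_ethanol and stood at -0.37 (SE 0.082, adjusted p = 0.00116 by edgeR) against Control in PMA_1002. Orc5 passed in no comparison, with log2 fold changes of 0.01, 0.11 and 0.12. Of the 6 subunits, 2 rose, 2 fell and 2 did not pass with PMA_ethanol, a median of 0.10. The shares, 33.3% each way, were near the 32.5% higher and 35.9% lower of all genes.

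CDC6 and CDT1 load the MCM helicase at origins, and geminin (Gmnn) binds CDT1 and blocks a further round of loading. Cdc6 (ENSMUSG00000017499, chr11:98907801-98923940, plus strand, GRCm38) stood at 4.16, 4.65, 6.26, 5.39 and 6.89 in Control, 2.41, 2.98, 1.24 and 2.58 in PMA_ethanol and 2.47, 5.16 and 6.79 in PMA_1002. Every PMA_ethanol library lay below every Control library, and PMA_1002 library 4, at 2.47, lay within the range of PMA_ethanol. Cdc6 fell by 1.14 (SE 0.27, adjusted p = 0.00128 by edgeR) with PMA_ethanol and was higher in PMA_1002 than in PMA_ethanol by 1.01 (SE 0.26, adjusted p = 0.00686 by edgeR). PMA_1002 versus Control did not pass, at -0.14 (SE 0.23, adjusted p = 0.639 by edgeR).

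Cdt1 stood at 10.9, 14.99, 13.5, 12.8 and 11.5 in Control, 10.8, 12.5, 11.2 and 12.4 in PMA_ethanol and 11.7, 13.5 and 14.97 in PMA_1002. All 3 groups overlapped, and the largest of its log2 fold changes was 0.19 (SE 0.116, edgeR adjusted p = 0.231), between the PMA groups. Gmnn stood at 5.203, 6.72, 6.097, 9.25 and 6.23 in Control, 2.52, 4.34, 1.66 and 1.72 in PMA_ethanol and 2.54, 4.15 and 4.39 in PMA_1002. Both PMA groups lay below every Control library, at -1.25 (SE 0.27, adjusted p = 0.000567 by edgeR) for PMA_ethanol and -0.83 (SE 0.23, adjusted p = 0.00643 by edgeR) for PMA_1002, and the PMA groups overlapped.

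The MCM2 to MCM7 proteins form the ring of the replicative helicase. Of these 6 genes 5 fell with PMA_ethanol (83.3%, against 35.9% of all genes), a median of -0.72, and Mcm4 did not pass at 0.09. Mcm2 stood at 20.98, 29.1, 33.5, 20.6 and 24.9 in Control, 8.66, 18.4, 9.54 and 14.4 in PMA_ethanol and 18.9, 23.3 and 25.8 in PMA_1002. PMA_ethanol lay below both other groups in every library, and PMA_1002 and Control overlapped. Mcm2 fell by 0.97 (SE 0.20, adjusted p = 0.000383 by edgeR) and was higher in PMA_1002 by 0.79 (SE 0.19, adjusted p = 0.00464 by edgeR), with -0.18 (SE 0.17, adjusted p = 0.382 by edgeR) between PMA_1002 and Control.

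Mcm6 (ENSMUSG00000026355, chr1:128331590-128359664, minus strand, GRCm38) stood at 52.7, 64.8, 68.3, 57.5 and 58.4 in Control, 32.9, 43.5, 29.04 and 36.9 in PMA_ethanol and 52.7, 54.2 and 59.1 in PMA_1002. PMA_ethanol was again apart from both groups: Mcm6 fell by 0.74 (SE 0.10, adjusted p = 7.11e-06 by edgeR), and PMA_1002 was higher than PMA_ethanol by 0.61 (SE 0.10, adjusted p = 0.000181 by edgeR). Mcm5 stood at 21.9, 31.7, 36.3, 24.8 and 27.4 in Control, 16.99, 25.1, 8.71 and 16.2 in PMA_ethanol and 21.4, 23.5 and 25.7 in PMA_1002. PMA_ethanol library 2 lay within the range of Control and library 3 far below it; Mcm5 fell by 0.70 (SE 0.20, adjusted p = 0.00479 by edgeR), and the PMA groups did not pass at 0.41 (SE 0.19, adjusted p = 0.103 by edgeR).

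Mcm3 stood at 28.4, 33.4, 35.5, 26.4 and 28.9 in Control, 23.5, 29.4, 22.8 and 26.2 in PMA_ethanol and 34.4, 35.2 and 40.6 in PMA_1002. PMA_1002 lay above every PMA_ethanol library, by 0.49 (SE 0.10, adjusted p = 0.00123 by edgeR), and overlapped with Control. Its fall with PMA_ethanol, -0.25 (SE 0.10, adjusted p = 0.0408 by edgeR), passed under only 12 of 24 alternatives, and its rise over Control in PMA_1002, 0.24 (SE 0.0925, edgeR adjusted p = 0.0396), under 16. Mcm7 fell by 1.10 (SE 0.18, adjusted p = 3.51e-05 by edgeR) with PMA_ethanol and fell by 0.70 (SE 0.16, adjusted p = 0.00116 by edgeR) with PMA_1002, from 41.6 ± 5.75 CPM (SD, n = 5) in Control to 18.7 ± 6.88 (n = 4) and 25.8 ± 2.97 (n = 6). Mcm4 was higher in PMA_1002 than in Control by 0.36 (SE 0.099, adjusted p = 0.00546 by edgeR), at 55.6 ± 3.53 (SD, n = 6) against 43.2 ± 4.03 CPM (n = 5).

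MCM10, CDC45 and the GINS complex turn the loaded ring into a moving helicase. Mcm10 stood at 5.03, 8.61, 9.15, 7.55 and 7.21 in Control, 5.15, 6.18, 2.904 and 3.29 in PMA_ethanol and 4.76, 5.05 and 6.42 in PMA_1002. The groups overlapped; Mcm10 fell by 0.70 (SE 0.22, adjusted p = 0.00849 by edgeR) with PMA_ethanol and fell by 0.52 (SE 0.19, adjusted p = 0.0292 by edgeR) with PMA_1002, the latter under 16 of 24 alternatives. Cdc45 stood at 8.32, 12.4, 10.3, 8.79 and 10.7 in Control, 4.71, 6.57, 2.49 and 4.86 in PMA_ethanol and 5.81, 7.03 and 8.303 in PMA_1002. Both PMA groups lay below every Control library, and Cdc45 fell by 1.02 (SE 0.20, adjusted p = 0.000201 by edgeR) with PMA_ethanol. PMA_ethanol library 2 overlapped with PMA_1002, and the difference between the PMA groups was near the threshold, at 0.51 (SE 0.19, adjusted p = 0.0464 by edgeR).

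All 4 GINS genes fell with PMA_ethanol, a median of -0.91, where 35.9% of all genes fell. Gins1 stood at 4.34, 3.62, 4.97, 4.78 and 5.58 in Control, 2.302, 2.85, 2.07 and 3.58 in PMA_ethanol and 2.504, 4.39 and 5.19 in PMA_1002. Gins3 stood at 6.76, 4.13, 6.899, 5.39 and 8.53 in Control, 2.41, 3.94, 2.904 and 2.43 in PMA_ethanol and 3.77, 4.68 and 6.31 in PMA_1002. In both genes PMA_ethanol lay below every Control library and overlapped with PMA_1002, which itself overlapped with Control. Gins1 fell by 0.75 (SE 0.23, adjusted p = 0.00833 by edgeR) and Gins3 fell by 1.08 (SE 0.24, adjusted p = 0.000723 by edgeR). Between the PMA groups Gins3 was higher in PMA_1002 by 0.71 (SE 0.23, adjusted p = 0.0259 by edgeR), and Gins1 did not pass at 0.57 (SE 0.22, adjusted p = 0.0582 by edgeR). Gins2 fell by 1.07 (SE 0.21, adjusted p = 0.000252 by edgeR) and Gins4 fell by 0.54 (SE 0.12, adjusted p = 0.000469 by edgeR) with PMA_ethanol, and both were also below Control in PMA_1002, at -0.86 and -0.28 (edgeR adjusted p = 0.0007905 and 0.0271), the latter under 18 of 24 alternatives. Of the licensing and helicase class, 15 of 21 fell (71.4%) and 2 rose (9.52%) with PMA_ethanol. Of all genes 35.9% fell and 32.5% rose. In PMA_1002 versus PMA_ethanol 7 were higher (33.3%, against 17.0% of all genes) and 0 lower (against 18.0%). In PMA_1002 versus Control 8 were lower (38.1%, against 26.7%) and 5 higher (23.8%, beside 28.4%).

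**Figure D3:**
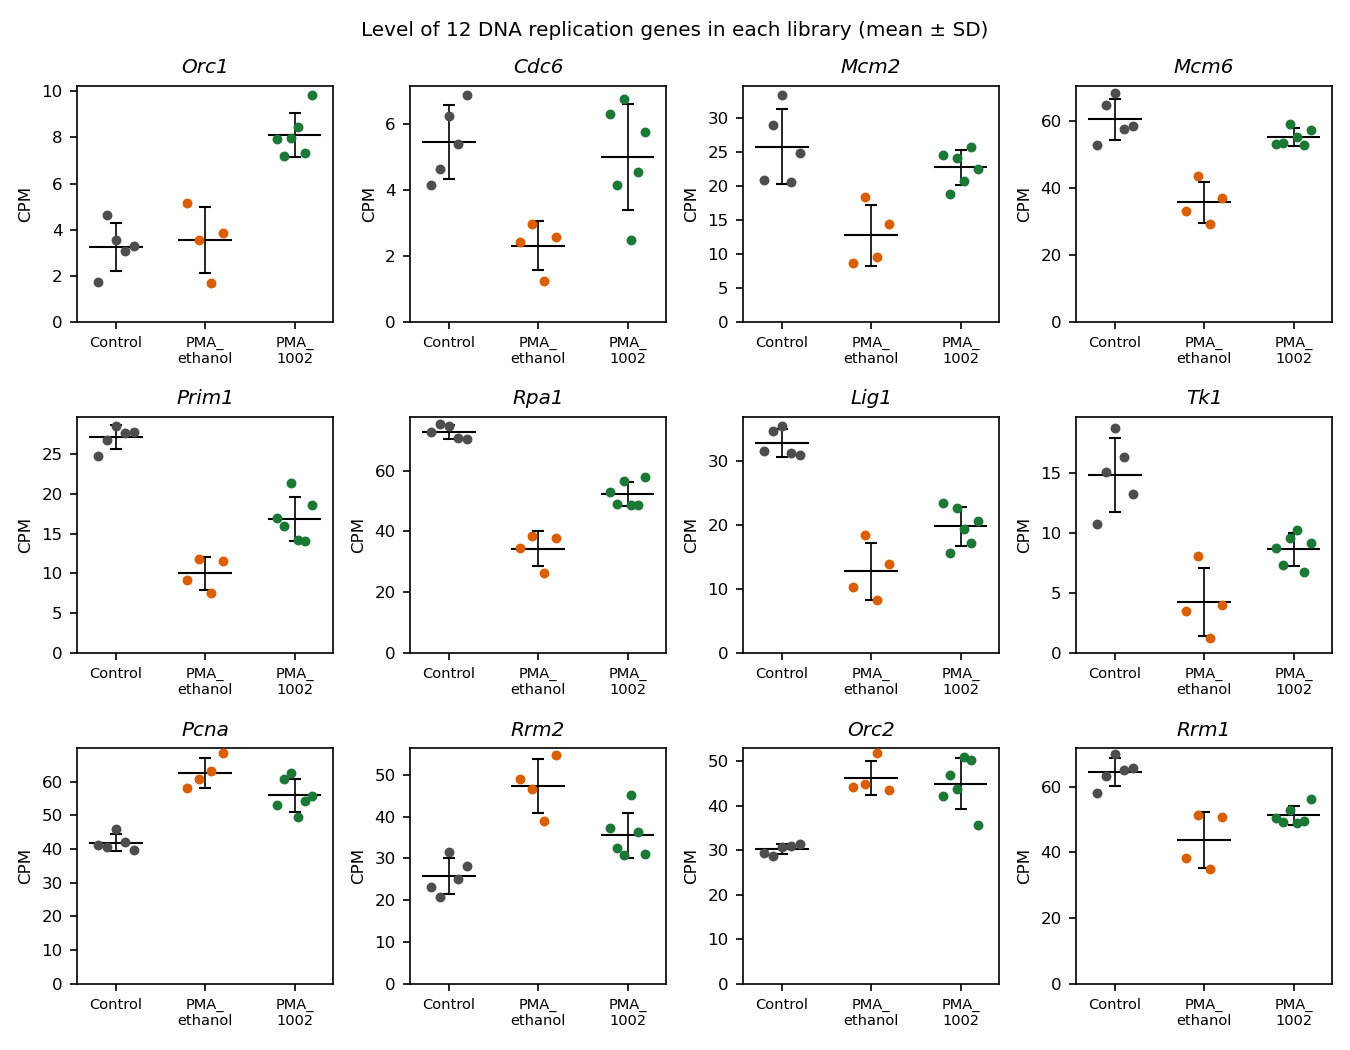
CPM (y axis, linear, from 0) of 12 members in each library; points are libraries by group, horizontal lines the group means and bars ± SD. PMA_ethanol is lowest for Mcm2, Mcm6, Prim1, Rpa1, Lig1 and Tk1 with PMA_1002 between or beside Control, while Pcna, Rrm2 and Orc2 are higher in PMA_ethanol than in Control.

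DNA polymerase alpha and primase lay down the primers, and polymerases delta and epsilon extend them. Pola1, the catalytic subunit of polymerase alpha, stood at 20.1, 19.98, 16.9, 18.96 and 18.5 in Control, 13.9, 13.9, 14.1 and 13.3 in PMA_ethanol and 12.7, 14.3 and 15.7 in PMA_1002. Both PMA groups lay below every Control library, at -0.45 (SE 0.095, adjusted p = 0.000444 by edgeR) and -0.40 (SE 0.084, adjusted p = 0.000708 by edgeR), and overlapped with each other (0.05, SE 0.0911, edgeR adjusted p = 0.713). Pola2, its accessory subunit, stood at -0.54 (SE 0.15, adjusted p = 0.00426 by edgeR) and -0.50 (SE 0.14, adjusted p = 0.00502 by edgeR) in the same order. Prim1, the catalytic primase subunit, stood at 24.8, 26.9, 28.6, 27.7 and 27.9 in Control, 9.21, 11.8, 7.47 and 11.6 in PMA_ethanol and 14.1, 16.5 and 21.4 in PMA_1002. The 3 groups did not overlap, with PMA_1002 between the others: Prim1 fell by 1.40 (SE 0.14, adjusted p = 1.50e-07 by edgeR) with PMA_ethanol, was higher in PMA_1002 than in PMA_ethanol by 0.70 (SE 0.14, adjusted p = 0.000772 by edgeR) and remained below Control at -0.70 (SE 0.12, adjusted p = 0.0001202 by edgeR). Prim2, the other primase subunit, passed in no comparison, with log2 fold changes of -0.11, -0.01 and -0.12.

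Pold1, the catalytic subunit of polymerase delta, stood at 15.96, 19.98, 24.6, 15.6 and 17.4 in Control, 5.81, 9.24, 4.56 and 8.01 in PMA_ethanol and 8.04, 9.903 and 13.04 in PMA_1002. Pole, that of polymerase epsilon, stood at 19.8, 24.98, 22.6, 25.9 and 19.02 in Control, 8.99, 15.8, 5.81 and 10.4 in PMA_ethanol and 12.8, 15.3 and 17.6 in PMA_1002. In both genes the PMA groups lay below every Control library and overlapped with each other, PMA_ethanol library 3 being the lowest of all. Pold1 fell by 1.38 (SE 0.20, adjusted p = 1.02e-05 by edgeR) and Pole fell by 1.05 (SE 0.20, adjusted p = 0.000154 by edgeR) with PMA_ethanol. Between the PMA groups Pold1 was just under the threshold, at 0.51 (SE 0.19, adjusted p = 0.0493 by edgeR), and Pole just over it, at 0.48 (SE 0.19, adjusted p = 0.057 by edgeR). Of the 6 polymerase and primase genes 5 fell with PMA_ethanol and 5 were lower in PMA_1002 than in Control, with medians of -0.80 and -0.53. These shares, 83.3% each, stood against 35.9% and 26.7% of all genes.

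PCNA is the sliding clamp that holds the polymerases on DNA, and the 5 RFC proteins load it. Pcna (ENSMUSG00000027342, chr2:132249162-132253314, minus strand, GRCm38) stood at 41.3, 40.6, 45.97, 41.9 and 39.7 in Control, 58.1, 60.8, 63.05 and 68.5 in PMA_ethanol and 49.4, 55.05 and 62.5 in PMA_1002. Every library of both PMA groups lay above every Control library, against the direction of its loader. Pcna rose by 0.58 (SE 0.081, adjusted p = 7.13e-06 by edgeR) with PMA_ethanol and was above Control in PMA_1002 by 0.42 (SE 0.073, adjusted p = 0.000153 by edgeR), and the PMA groups overlapped, at -0.16 (SE 0.077, adjusted p = 0.119 by edgeR). The annotation names 2 pseudogenes of Pcna and 1 of Tyms. Reads without a unique alignment were counted apart from the genes, so reads that align to both could be missing from the parent gene. The effect of these pseudogenes on the counts was not tested.

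All 5 RFC genes fell with PMA_ethanol, a median of -0.72, where 35.9% of all genes fell. Rfc1, the large subunit, stood at 59.3, 61.5, 67.9, 59.2 and 60.5 in Control, 41.9, 51.1, 46.5 and 49.9 in PMA_ethanol and 53.03, 56.5 and 57.7 in PMA_1002. Rfc3 stood at 17.5, 21.01, 17.6, 21.1 and 14.6 in Control, 9.1, 11.7, 12.03 and 8.87 in PMA_ethanol and 11.3, 14.3 and 16.4 in PMA_1002. Rfc5 stood at 20.5, 22.7, 21.4, 19.6 and 20.01 in Control, 11.2, 12.1, 6.22 and 9.297 in PMA_ethanol and 14.1, 14.5 and 16.8 in PMA_1002. Rfc1 and Rfc5 showed 3 groups without overlap, PMA_1002 between the others, and in Rfc3 PMA_ethanol lay below Control and overlapped with PMA_1002. The falls with PMA_ethanol were -0.38 (SE 0.072, adjusted p = 0.0001704 by edgeR) for Rfc1, -0.83 (SE 0.15, adjusted p = 0.000107 by edgeR) for Rfc3 and -1.04 (SE 0.14, adjusted p = 3.32e-06 by edgeR) for Rfc5. The differences between the PMA groups were 0.24 (SE 0.070, adjusted p = 0.0134 by edgeR), 0.44 (SE 0.14, adjusted p = 0.0253 by edgeR) and 0.56 (SE 0.13, adjusted p = 0.00336 by edgeR) in the same order. Rfc2 fell by 0.49 (SE 0.11, adjusted p = 0.00104 by edgeR) and Rfc4 fell by 0.72 (SE 0.17, adjusted p = 0.001196 by edgeR), and neither passed between the PMA groups (edgeR adjusted p = 0.513 and 0.0628).

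The 3 RPA proteins cover single-stranded DNA at the fork. All 3 genes fell with PMA_ethanol and remained below Control in PMA_1002, with medians of -1.06 and -0.48. Of all genes 35.9% and 26.7% were lower in these comparisons. Rpa1 (ENSMUSG00000000751, chr11:75298166-75348324, minus strand, GRCm38), the large subunit, stood at 72.8, 75.3, 74.6, 70.7 and 70.3 in Control, 34.5, 38.5, 26.1 and 37.9 in PMA_ethanol and 48.7, 50.97 and 57.8 in PMA_1002. Rpa2 stood at 16.5, 23.4, 18.4, 17.9 and 18.2 in Control, 10.8, 12.4, 8.297 and 11.01 in PMA_ethanol and 12.7, 14.6 and 17.2 in PMA_1002. In both genes every PMA_1002 library lay above every PMA_ethanol library, and for Rpa1 also below every Control library. Rpa1 fell by 1.06 (SE 0.096, adjusted p = 3.69e-08 by edgeR), the smallest adjusted p of the members, and was higher in PMA_1002 by 0.58 (SE 0.092, adjusted p = 0.000113 by edgeR). Rpa2 fell by 0.79 (SE 0.14, adjusted p = 7.01e-05 by edgeR) and was higher in PMA_1002 by 0.41 (SE 0.13, adjusted p = 0.0235 by edgeR). Rpa3 fell by 1.16 (SE 0.20, adjusted p = 6.01e-05 by edgeR), and its difference between the PMA groups, 0.50 (SE 0.19, adjusted p = 0.0541 by edgeR), did not pass although the libraries did not overlap.

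FEN1 trims the flaps of lagging-strand fragments and LIG1 joins them. Fen1 stood at 16.1, 19.98, 18.2, 17.4 and 18.4 in Control, 14.8, 16.5, 7.47 and 12.6 in PMA_ethanol and 13.4, 16.2 and 16.8 in PMA_1002. All groups overlapped, and PMA_ethanol library 3 was far below the rest; Fen1 fell by 0.43 (SE 0.15, adjusted p = 0.0188 by edgeR), under 22 of 24 alternatives. Lig1 stood at 31.6, 34.6, 35.5, 31.1 and 30.8 in Control, 10.3, 18.4, 8.297 and 13.9 in PMA_ethanol and 15.6, 19.9 and 23.4 in PMA_1002. Both PMA groups lay below every Control library, and PMA_ethanol library 2 lay within PMA_1002. Lig1 fell by 1.30 (SE 0.18, adjusted p = 4.76e-06 by edgeR) with PMA_ethanol, was higher in PMA_1002 by 0.56 (SE 0.17, adjusted p = 0.0165 by edgeR) and remained below Control at -0.74 (SE 0.15, adjusted p = 0.000588 by edgeR). In the polymerase and clamp class 15 of 17 fell (88.2%) and 1 rose (5.88%) with PMA_ethanol. Of all genes 35.9% fell and 32.5% rose. In PMA_1002 versus PMA_ethanol 8 were higher (47.1%, against 17.0% of all genes) and 0 lower (against 18.0%). In PMA_1002 versus Control 12 were lower (70.6%, against 26.7%) and 1 higher (5.88%, against 28.4%).

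Ribonucleotide reductase makes deoxynucleotides from a large subunit, RRM1, and a small subunit, RRM2, whose amount limits the enzyme in S phase. Rrm1 stood at 58.1, 63.2, 70.04, 65.2 and 65.8 in Control, 38.4, 51.3, 34.9 and 50.6 in PMA_ethanol and 49.03, 50.01 and 56.3 in PMA_1002. Rrm2 (ENSMUSG00000020649, chr12:24708241-24714146, plus strand, GRCm38) stood at 23.1, 20.7, 31.6, 24.97 and 28.2 in Control, 49.01, 46.6, 38.99 and 54.8 in PMA_ethanol and 30.7, 34.4 and 45.1 in PMA_1002. With PMA_ethanol the subunit genes moved in opposite directions without overlap with Control: Rrm1 fell by 0.54 (SE 0.10, adjusted p = 0.000179 by edgeR) and Rrm2 rose by 0.88 (SE 0.14, adjusted p = 1.95e-05 by edgeR). In PMA_1002 Rrm2 was lower than in PMA_ethanol, at -0.42 (SE 0.13, adjusted p = 0.0171 by edgeR), with overlapping libraries, and above Control by 0.46 (SE 0.12, adjusted p = 0.00483 by edgeR). Rrm1 did not pass between the PMA groups, at 0.21 (SE 0.099, adjusted p = 0.117 by edgeR), and was below Control in PMA_1002 at -0.33 (SE 0.091, adjusted p = 0.005295 by edgeR).

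TYMS makes thymidylate anew and TK1 salvages thymidine in the cytosol of cycling cells. Tyms stood at 17.2, 11.9, 18.5, 16.2 and 19.02 in Control, 12.3, 16.1, 8.71 and 15.7 in PMA_ethanol and 14.1, 14.6 and 19.8 in PMA_1002. Tk1 (ENSMUSG00000025574, chr11:117815526-117826092, minus strand, GRCm38) stood at 10.8, 15.2, 18.9, 16.3 and 13.3 in Control, 3.51, 8.104, 1.24 and 4.005 in PMA_ethanol and 6.77, 8.96 and 10.3 in PMA_1002. The groups overlapped for Tyms, which passed in no comparison, while both PMA groups lay below every Control library for Tk1. Tk1 had the largest fall of the members, at -1.65 (SE 0.30, adjusted p = 0.000102 by edgeR), was higher in PMA_1002 by 0.84 (SE 0.29, adjusted p = 0.0303 by edgeR), and remained below Control at -0.81 (SE 0.25, adjusted p = 0.0119 by edgeR). Its PMA_ethanol libraries spread from 1.24 in library 3, a value that rests on 3 reads, to 8.10 in library 2, with 185 reads.

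Other genes of the pathway were followed in 5 lists. Of 33 replication partners, such as polymerase accessory subunits, checkpoint mediators and chromatin assembly factors, 19 fell and 6 rose with PMA_ethanol (median -0.38), where 35.9% and 32.5% of all genes did. Mcmbp, an MCM-binding protein, Chtf8, of an alternative clamp loader, and Donson, a fork factor, rose by 0.79, 0.81 and 1.09. Dscc1, of the same alternative loader as Chtf8, Rnaseh2a, a ribonuclease H2 subunit, and Atad5, which unloads PCNA, fell, at -1.89, -0.78 and -0.95. In PMA_1002 versus PMA_ethanol 10 were higher and 4 lower (median 0.20), or 30.3% and 12.1% beside 17.0% and 18.0% of all genes. Chaf1a, Topbp1 and Dnmt1 were higher by 0.83, 0.51 and 0.32, and Pold4, Donson and Chtf8 were lower by log2 fold changes of -0.59, -0.65 and -0.34. In PMA_1002 versus Control 5 were higher (15.2%, against 28.4% of all genes) and 10 lower (30.3%, near the 26.7% of all genes), among them Recql4 at -1.55 and Dna2 at -0.67.

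Of 25 other enzymes of nucleotide supply, 12 rose (48.0%) and 9 fell (36.0%) with PMA_ethanol (median 0.18). The share that fell was near the 35.9% of all genes, and that of rises stood beside 32.5%. Samhd1, which degrades deoxynucleotides, rose by 2.10, Ctps, CTP synthase, by 1.58 and Impdh2, of guanine nucleotide synthesis, by 0.87. Dguok, the mitochondrial deoxyguanosine kinase, Dut, the dUTPase, and Mthfd1, of folate metabolism, fell with log2 fold changes of -1.37, -1.22 and -0.81. Between the PMA groups 7 were higher (28.0%) and 5 lower (20.0%), the latter near the 18.0% of all genes and the former beside 17.0%. Mthfd1 was higher in PMA_1002 by 0.58, and Samhd1 lower at -0.68. Against Control, 13 were higher (52.0%, against 28.4% of all genes) and 5 lower (20.0%, against 26.7%) in PMA_1002, with Gart and Ppat, of purine synthesis, higher by 0.72 and 1.03.

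Of 33 measured genes of G1 to S control, 15 fell (45.5%) and 11 rose (33.3%) with PMA_ethanol (median -0.38), the rises being near the background of 32.5% and the falls standing beside 35.9%. Myc, E2f4, an E2F that often acts as a repressor, and the CDK inhibitor Cdkn1a rose by 1.73, 1.05 and 1.94. Tfdp2, an E2F partner, the CDK inhibitor Cdkn1b and the pocket protein Rbl2 fell, at -1.96, -1.76 and -1.39. Between the PMA groups 14 were higher (42.4%, against 17.0% of all genes) and 4 lower (12.1%, against 18.0%), a median of 0.18. In PMA_1002 versus Control 11 were higher (33.3%, against 28.4%) and 12 lower (36.4%, against 26.7%). Tfdp2, Rbl1 and Cdkn2c were higher in PMA_1002 than in PMA_ethanol by 0.85, 0.92 and 0.91, and Cdkn1a, Cdk6 and E2f7 were lower at -0.93, -0.76 and -1.09.

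Of 25 mitosis genes 20 fell (80.0%, against 35.9% of all genes) and 0 rose with PMA_ethanol, a median of -0.71 beside the members' -0.70. Nusap1, Kif23 and Ccnb2, genes of the spindle, of cytokinesis and of mitotic entry, fell with log2 fold changes of -1.71, -0.66 and -1.11. In PMA_1002 versus PMA_ethanol 5 were higher and 0 lower (median 0.37), and the share that were higher (20.0%) was near the 17.0% of all genes, with Nusap1, Cenpf and Kif23 higher by 0.96, 0.91 and 0.51. In PMA_1002 versus Control 10 were lower (40.0%, against 26.7% of all genes) and 0 higher. Of 25 measured genes of the damage response 9 rose and 9 fell with PMA_ethanol, 36.0% each way and near the 32.5% and 35.9% of all genes, with Gadd45b and Btg2 higher by 2.07 and 2.77 and Sesn1, Bbc3 and Chek2 lower at -2.80, -1.69 and -1.72. Between the PMA groups 5 were higher and 5 lower, 20.0% each way and near the 17.0% and 18.0% of all genes. Against Control 11 were higher (44.0%, against 28.4%) and 7 lower (28.0%, near 26.7%) in PMA_1002.

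**Figure D4:**
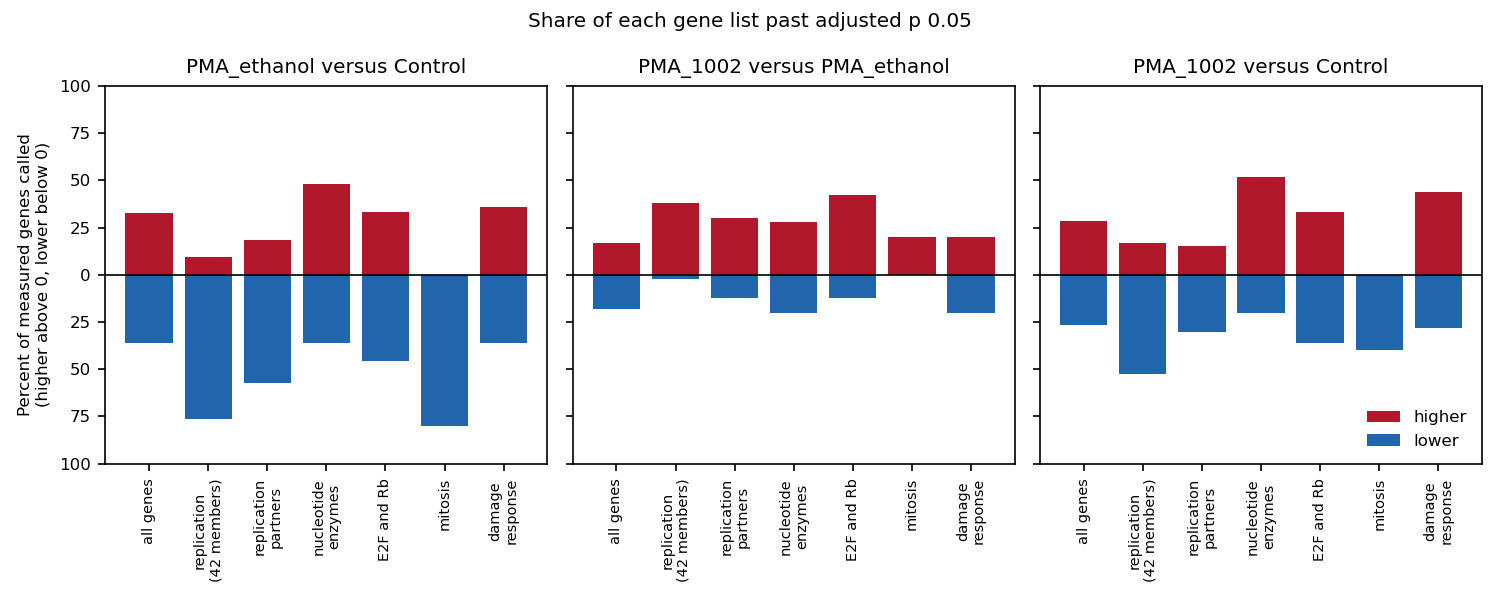
Percent of the measured genes of each list that passed an edgeR adjusted p of 0.05, as higher (above 0) and lower (below 0), in the 3 comparisons; the first bar is all genes tested. In PMA_ethanol versus Control the lower share was 76.2% of the replication members and 80.0% of the mitosis genes, against 35.9% of all genes.

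The mean log2 CPM of the 42 members separated the groups: it ran from 4.16 to 4.39 in Control, from 3.99 to 4.12 in PMA_1002 and from 3.31 to 3.94 in PMA_ethanol. Within PMA_ethanol, library 2 had the highest level of the group for 29 of 42 members and library 3 the lowest for 30 of 42. Those were also the libraries with the highest and lowest hair follicle level, at 6.87 and -0.49 mean log2 CPM. They also held the most and the fewest reads in genes of the group, 23999666 and 2656680. In Control, library 3, with a hair level of 6.94 and the most reads in genes of its group (11501228), was highest for 18 members. Skeletal muscle markers had the lowest sums of these groups in PMA_ethanol library 2 and Control library 3, at 837.1 and 1300 CPM. The part of hair, read depth and muscle in these levels was not tested. In PMA_1002 the hair levels, from lowest to highest, were -0.63, 0.0, 0.17, 2.07, 4.4 and 5.19 in libraries 6, 2, 5, 3, 4 and 1. The member levels of these libraries, in the same order, were 4.11, 3.99, 4.01, 4.12, 4.05 and 4.09. Library 5 held the most reads in genes of all libraries, 28585995. Of the 16 measured hair markers of 18 listed, 1 (Msx2) was lower with PMA_ethanol (6.25%, against 35.9% of all genes). Between the PMA groups 0 of them passed, against 35.0% of all genes, and their median log2 fold change was -2.14. With the hair level as a covariate 32 members fell and 4 rose with PMA_ethanol, and 19 were higher and 1 lower in PMA_1002 than in PMA_ethanol. Of those 19, 13 were among the 16 reported above. Cdc45, Gins3 and Rfc3 no longer passed, while Gins1, Mcm4, Mcm5, Mcm7, Pole and Rfc4 did.

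Neutrophil markers moved against the members: all 8 measured of 9 listed rose with PMA_ethanol, a median of 7.37, and all 8 were lower in PMA_1002 than in PMA_ethanol. Of all genes 32.5% rose with PMA_ethanol, and 18.0% were lower in PMA_1002 than in PMA_ethanol. The summed level of the neutrophil markers was 100 to 122.5 CPM in Control, 1431 to 2916 in PMA_ethanol and 370.0 to 674.8 in PMA_1002. Basal keratinocyte markers, 8 of 8 measured, summed to 10310 to 13100 CPM in Control, 7160 to 9141 in PMA_ethanol and 11380 to 12810 in PMA_1002. Of these 3 fell (Krt15, Krt5 and Krt14) and 2 rose (Itga6 and Lamb3, by 0.69 and 0.66) with PMA_ethanol, a median of -0.16. A large part of the sums was Krt5 and Krt14, with means of 4139 and 3635 CPM in Control and 2514 and 2955 in PMA_ethanol. Between the PMA groups 6 of the basal keratinocyte markers were higher (75.0%, against 17.0% of all genes) and 1 lower (12.5%, against 18.0%) in PMA_1002. Sebocyte markers, 6 of 6 measured, summed to 9173 to 10500, 5665 to 9355 and 6407 to 8903 CPM, 4 of them lower with PMA_ethanol (66.7%, against 35.9% of all genes). Mast cell markers, 7 of 7 measured, summed to 328.6 to 408.7, 175.0 to 288.6 and 256.7 to 334.5 CPM, with 5 lower (71.4%, against 35.9%). Macrophage markers, 8 of 8 measured, summed to 585.1 to 772.1, 1356 to 1864 and 910.7 to 1200 CPM, with 3 higher and 2 lower. No marker found in the tables was at 0 in all libraries, 17 of the 18 hair markers being found there, and 0 of 6 B cell markers passed the filter, the highest value being 1.40 CPM. The part of these cell types in the members' differences was not tested, and the fit with the hair level as a covariate was only an alternative fit.

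**Figure D5:**
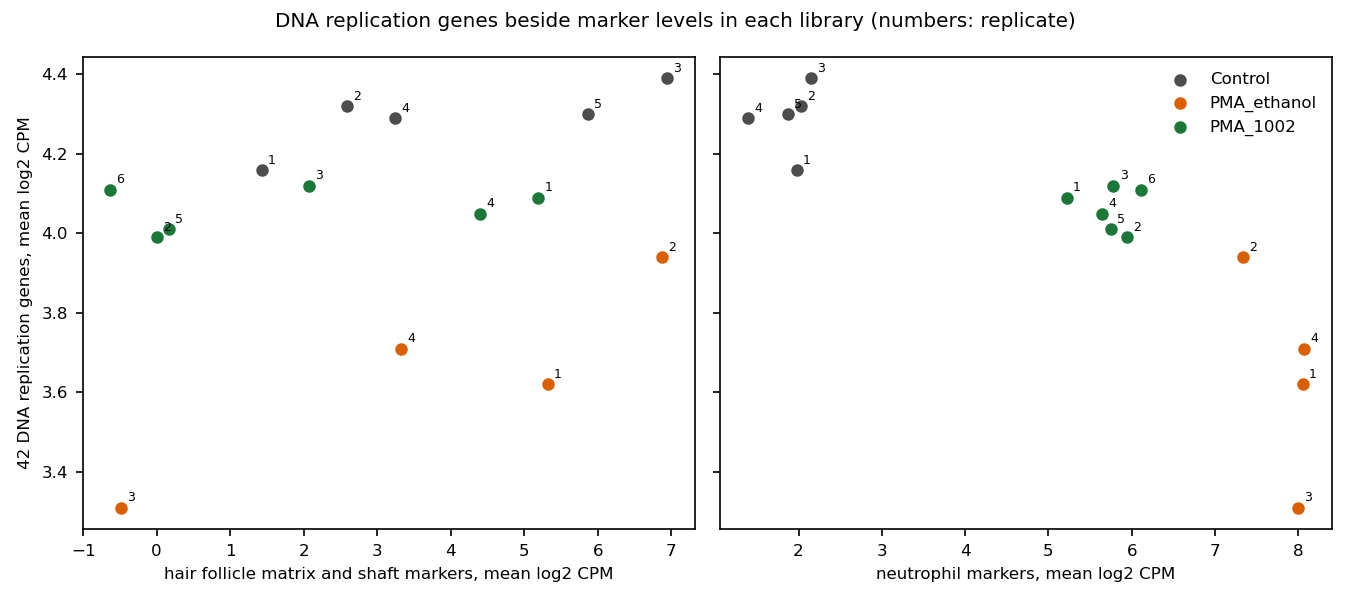
Mean log2 CPM of the 42 members (y axis) beside that of hair follicle markers (left) and neutrophil markers (right) in each library; numbers are replicates and colours groups. PMA_ethanol libraries sit lowest, from 3.31 (library 3, hair level -0.49) to 3.94 (library 2, hair level 6.87), and have the highest neutrophil levels, from 7.33 to 8.07.

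Some values are uncertain for the way reads were counted. In the annotation 16 members share exon bases with another gene: Orc1, Orc2, Orc4, Orc5, Orc6, Mcm7, Cdc45, Gins2, Pole, Rfc2, Rfc4, Rfc5, Rpa1, Fen1, Lig1 and Tk1. The shared length ran from 44 bases (Rpa1) to 2758 bases (Gins2 with Gse1), and was 1150 bases for Orc2 with Nif3l1 and 582 for Orc4 with Acvr2a and Mbd5. No source used here gives the strand option of the counting, so reads of such pairs cannot be told apart.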

How the data were processed

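Polyadenylated RNA of 15 ear samples was made into stranded libraries, per the labels' protocols. The deposited values are whole-number counts of reads per gene, 1 table per library, not normalized; per the submitters' processing notes, the tools were STAR 2.5, HTSeq, FastQC 0.11.5 and MultiQC 0.8, on GRCm38. Strand option and annotation release: not given in the sources used here. Rows that name no gene, 28.5% to 32.85% of reads, stayed out of library sizes and tests.

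Counts were fitted in R 4.3.3 with edgeR 4.0.16: TMM scaling, filterByExpr by group (14991 genes), robust quasi-likelihood over all 15 libraries with group as the only term, and Benjamini-Hochberg adjustment. SE came from the F statistic; edgeR's Poisson bound raised the p of 6 member tests (Prim2 in 2 comparisons, Rfc2, Mcm10, Gins2 and Gins4 between the PMA groups), whose SE and p therefore differ. Mean log2 CPM of a list used a prior count of 2. Libraries of 1 group differed beyond sampling noise (chi-square per degree of freedom 2.927 to 27.018 over 31 pairs). In simulated data for PMA_ethanol versus Control, 200 of 14991 genes were set to differ. The test recovered 37.3% of those set to a fold of 1.5, 86.6% at 2 and 90.9% at 4. Of its calls 5.3% were false. In the data themselves 68.4% of genes passed, far more than were set to differ, so these shares may not hold for them.

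The members and lists were chosen with earlier results of these data known. Per-library values are given for 23 set members and any other called between the PMA groups, 29 in all. Of other lists up to 3 called genes of smallest adjusted p per direction are named, and not every such gene is printed. Of 20 gene lists, 12 hold cell type markers. Alternatives were 24: scalings, filters, 2-group fits, a replicate block, the hair level as a covariate, DESeq2 1.42.0, no Poisson bound (chosen after seeing the data) and each library left out.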

Additional observations from a re-analysis of the deposited data

Results flagged for a closer look

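In 87 groups of 4 to 6 libraries, 1 for each of 29 members in each group, 4 held a library set apart from the rest by more than the 95% limit of Dixon's test, where chance gives about 1 in 20. Rfc1 stood at 67.87 CPM in Control library 3, above the other 4. Rpa2 stood at 23.43 CPM in Control library 2, above the other 4. Mcm3 stood at 40.59 CPM in PMA_1002 library 4, above the other 5, and Fen1 stood at 13.37 CPM in PMA_1002 library 3, below the other 5.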

How the results depend on the processing

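Against 24 alternatives, the count of members that fell with PMA_ethanol ran from 30 to 35 (32 as reported) and that of members that rose from 3 to 4. In PMA_1002 versus PMA_ethanol the 16 higher members became 10 with a replicate block, of which 9 were shared, and the 1 lower member (Rrm2) became 0 with that replicate block. Leaving out each library in turn gave 8 to 24 members higher and 0 to 1 lower; the cause was not tested. By correlation, the replicate numbers showed no clear pairing: 2 of 13 same-numbered pairs correlated above 0.1 (range -0.533 to 0.579), and 1 library correlated best with its own number. Control library 3 and PMA_ethanol library 2, with hair levels of 6.94 and 6.87, correlated at 0.686 although their numbers differ. Such correlations can follow hair level and cannot show whether the numbers mark a shared batch. The block otherwise ended the member calls of Mcm3 (both comparisons with Control), Mcm10 and Orc6 (PMA_1002 versus Control), and gave 31 lower with PMA_ethanol and 20 lower with PMA_1002 against Control. The lower count in PMA_1002 versus Control ran from 15 (no low-count filter) to 29 (upper-quartile scaling). Several fold changes that passed in no setting took both signs. In PMA_ethanol versus Control they were Orc1 (0.20, but -0.03 with upper-quartile scaling and 0.0 without PMA_ethanol library 1, the range over libraries left out being 0.0 to 0.35), Mcm4 (0.09, -0.14 with upper-quartile scaling) and Orc5 (0.01, -0.23 with it). In PMA_1002 versus PMA_ethanol the extremes over the 24 alternatives were -0.07 and 0.19 for Pola2, -0.07 and 0.05 for Orc2, -0.05 and 0.07 for Prim2, and -0.19 and 0.05 for Orc4. In PMA_1002 versus Control they were Cdt1 (0.08, but -0.08 with upper-quartile scaling), Orc5 (0.12, but -0.04 with it) and Cdc6 (-0.14, but 0.03 with the hair level as a covariate), and Tyms (-0.09) came to 0.0 with that covariate. Members with few reads (3 at least) are the least precise. In PMA_ethanol library 3, Cdc6 and Tk1 held 3 reads each and Orc1 and Gmnn 4 each.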
